A study of Mus musculus with 4 samples.

Results

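The kinesin motor genes were examined in RNA-seq data of neural precursor cells (NPCs) derived from mouse embryonic stem cells (ESCs). The members are all genes whose symbol is Kif followed by a number, with or without a letter a, b or c, and Kifc1, Kifc2 and Kifc3, with 1 symbol left out. This rule uses names only and took 40 of the 55602 genes in the count table. Of these, 13 were listed as mitotic kinesins, 13 as transport kinesins of neurons and other cells, and 14 as other kinesins. Wild-type cells were JB1, male ESCs of a cross between a JF1 female and a C57BL/6 male, and mutant cells were a single *Zfp57*-/- line derived from JB1, so that genotype and line cannot be told apart. ZFP57 is a zinc-finger protein that keeps DNA methylation at imprinting control regions. Both lines were differentiated for 12 days in a defined default medium, with 1 µM cyclopamine, an inhibitor of hedgehog signalling, from day 2 to day 10, and each genotype was sequenced as 2 biological replicates.

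Kinesins are motor proteins that use ATP to move along microtubules or to take microtubules apart. One set builds and moves the spindle, carries chromosomes and completes cytokinesis, and is made mainly in dividing cells. Another set carries vesicles, mitochondria and other cargo, and is especially abundant in neurons, whose long axons depend on it. A further set works in cilia, at microtubule ends or in signalling.

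The libraries held between 7663520 and 10337082 assigned fragments, of which 2837013 to 3826604 could be given to a parental allele. The targeted gene, *Zfp57*, was counted 392 and 249 times in the wild-type libraries and 158 and 144 times in the mutant libraries, so that it was lower but still read in the mutant line. Where the deletion lies was not given in the sources used here, so this is no full check of the labels. The labelled cell type differed between genotypes in its markers. Summed over 7 neuron genes (*Tubb3*, *Dcx*, *Map2*, *Stmn2*, *Elavl3*, *Elavl4* and *Rbfox3*), the level was 1482 and 1854 CPM (counts scaled to the library size with TMM factors) in wild-type cells, and 211 and 165 CPM in *Zfp57*-/- cells. The summed level of 6 pluripotency genes (*Pou5f1*, *Nanog*, *Zfp42*, *Esrrb*, *Dppa5a* and *Tdgf1*) was 3.71 and 7.26 CPM in wild-type cells, and 1145 and 1000.4 CPM in *Zfp57*-/- cells. Of 7 neural progenitor markers, 5 were lower in *Zfp57*-/- cells (*Hes5*, *Pax6*, *Fabp7*, *Sox1* and *Nes*, with log2 fold changes of -5.16, -3.03, -3.00, -2.95 and -0.91), and *Vim* (-0.25) and *Sox2* (0.49) did not pass the test. Of all 19995 genes tested, 14.6% were lower by the same test. These markers moved with the kinesin results below, and their part in them was not tested. In such bulk samples, fewer cells of a type and less RNA per cell cannot be told apart.

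**Figure D1:**
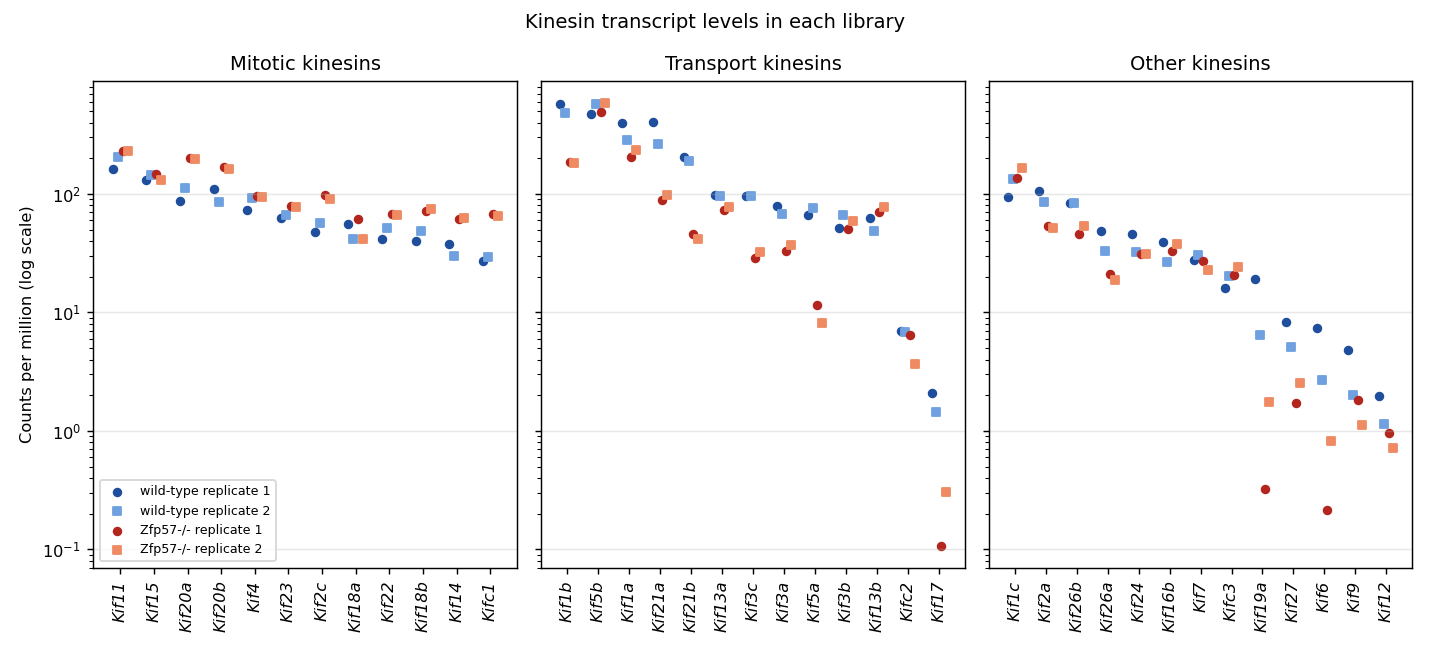
Levels of the 38 kinesin genes with more than 8 counts in all, in CPM on a log axis, for 2 wild-type (blue) and 2 *Zfp57*-/- (red) libraries, ordered within each role by wild-type level. Red points lie above blue ones for *Kifc1* and *Kif20a* among the mitotic genes, and below them for *Kif5a*, *Kif21b* and *Kif1b* among the transport genes.

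Promoter sequences are shown first, because a short motif was more frequent in the mitotic than in the transport promoters at hand. Both lists and the motifs were chosen with earlier results of these data known. Many genes that peak late in the cell cycle carry a CDE/CHR-type promoter, in which the cell cycle genes homology region (CHR), with the core TTTGAA or its variant TTCGAA, lies close to the transcription start, often downstream of CCAAT boxes, which the factor NF-Y binds. The RefSeq promoter table (build GRCm38.p6, 250 bases before to 50 after each start) held 35 windows for 31 of the 40 members. Of the 13 mitotic genes it held 12, without *Kif20a*. Of the 13 transport genes it held 8, without *Kif5a*, *Kif5b*, *Kif21b*, *Kif13b* and *Kifc2*. The stretches below run from 100 bases before the start to 25 bases from it on, for 4 mitotic genes and for 2 transport genes that were lower in *Zfp57*-/- cells. They are chosen examples: each of the 4 mitotic genes holds the CHR core there, and the 2 transport genes hold no match. *Kif3a*, which was also lower and holds CCAAT at -18, and *Kif18a*, a mitotic gene without the core, are not shown. Capitals mark the CHR core or CCAAT on either strand (TTTGAA reads TTCAAA, and CCAAT reads ATTGG, on the opposite strand).
*Kif11* (chr19:37376282-37376406, plus strand): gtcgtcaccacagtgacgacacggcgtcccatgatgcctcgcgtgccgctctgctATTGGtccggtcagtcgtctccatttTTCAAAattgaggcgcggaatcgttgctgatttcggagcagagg
*Kif18b* (chr11:102925100-102925224, minus strand): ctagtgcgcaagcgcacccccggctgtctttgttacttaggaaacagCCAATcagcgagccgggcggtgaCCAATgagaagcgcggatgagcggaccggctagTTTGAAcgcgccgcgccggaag
*Kif20b* (chr19:34922258-34922382, plus strand): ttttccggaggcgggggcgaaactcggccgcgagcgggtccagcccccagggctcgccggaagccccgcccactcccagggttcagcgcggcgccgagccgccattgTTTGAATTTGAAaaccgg
*Kif23* (chr9:61946775-61946899, minus strand): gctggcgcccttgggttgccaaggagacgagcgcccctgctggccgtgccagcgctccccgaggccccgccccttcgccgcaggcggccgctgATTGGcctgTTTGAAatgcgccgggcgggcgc
*Kif21a* (chr15:91049927-91050051, minus strand): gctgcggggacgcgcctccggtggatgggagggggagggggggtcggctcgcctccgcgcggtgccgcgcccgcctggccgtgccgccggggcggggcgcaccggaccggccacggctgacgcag
*Kif3c* (chr12:3365032-3365156, plus strand): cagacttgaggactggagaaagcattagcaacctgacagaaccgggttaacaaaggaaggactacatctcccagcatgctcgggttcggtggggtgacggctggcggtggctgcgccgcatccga

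On either strand, the CHR core was present in 10 of 12 mitotic windows (83.3%), 1 of 10 transport windows and 2 of 13 windows of other kinesins, against 17.9% of all 32851 promoters. No marked match overlapped another. In 8 of the 12 mitotic windows it began within 30 bases of the start, against 3.14% of all promoters. These 8 were *Kif11* and *Kif15* (both at -19), *Kif22* (-17), *Kifc1* (2), *Kif23* (3), *Kif18b* (4), *Kif20b* (8 and 14) and *Kif4* (20), where position 1 is the first transcribed base and negative positions lie before it. In *Kif2c* and *Kif14* the match lay at -103 and -228, and the table's start for these genes was 3867 and 1505 bases inside the gene as GENCODE draws it. *Kif18a* and *Kif2b* held none. The only transport match was in a second *Kif1a* window, whose start was 19471 bases inside the gene. CCAAT was present in 8 of 12 mitotic and 4 of 10 transport windows, against 37.4% of all promoters. These 4 include both windows of *Kif1b*, which overlap and hold the same matches. The *Kif17* window, whose start was 11816 bases inside the gene, held none of the motifs. TTCGAA was found in 1 member, *Kif24*, and in 1.56% of all promoters. A match is a description of the letters and not evidence of binding.

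**Figure D2:**
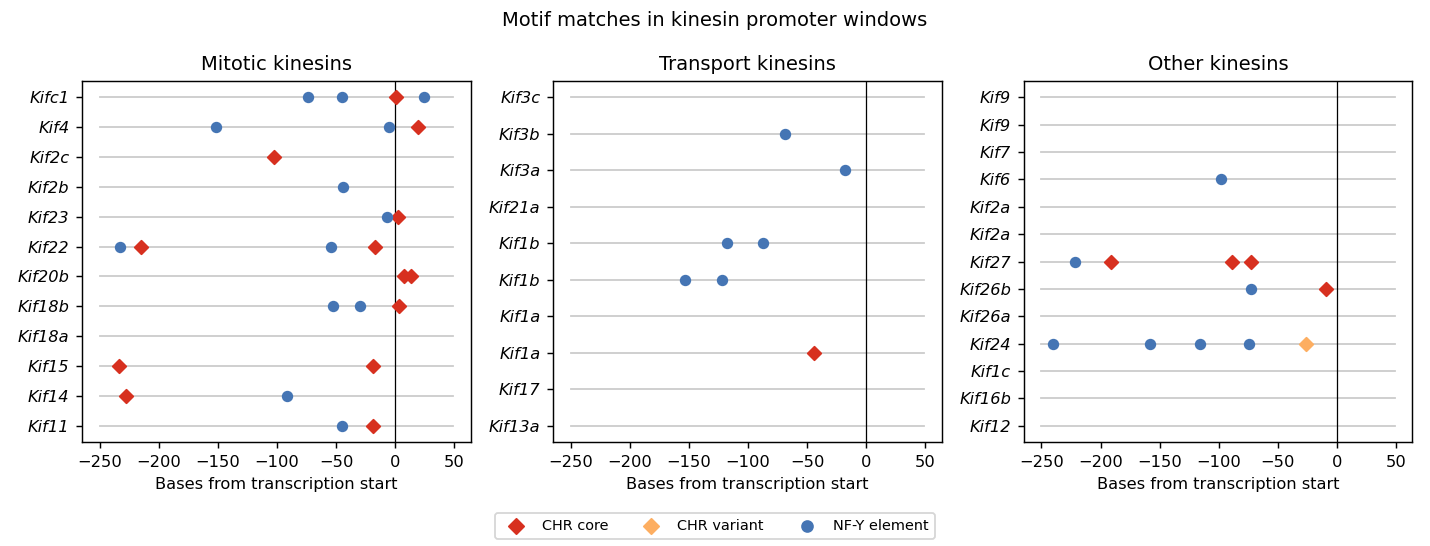
Positions of the CHR core (red diamonds), the CHR variant (orange diamond) and the NF-Y element, which is CCAAT (blue circles), in the promoter windows of the kinesin genes, in bases from the transcription start, with a row per window. In 8 of the 12 mitotic windows a red diamond lies within 30 bases of the start, and in none of the 10 transport windows.

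Transcript levels were first compared per length, as TPM (counts divided by the gene length in the table and scaled to the same sum in each library). In wild-type cells the leading kinesin was *Kif5b*, the ubiquitous conventional kinesin heavy chain, at 207 ± 19.9 TPM (SD, n = 2). It was followed by *Kif21a* (163 ± 55.0 TPM), *Kif11* (121 ± 15.7 TPM), *Kif1a* (116 ± 30.8 TPM) and *Kif1b* (95.5 ± 15.5 TPM). Neighbours in this order differed by less than the sum of their SDs. In *Zfp57*-/- cells *Kif5b* still led with 177 ± 26.3 TPM, followed by the mitotic genes *Kif20a* (137 ± 0.848 TPM) and *Kif11* (124.6 ± 4.80 TPM), while *Kif21a* was in place 11 with 37.5 ± 3.60 TPM. Of places 2 to 6 in this order, 3 were held by transport and 2 by mitotic kinesins in wild-type cells, and 1 by a transport and 4 by mitotic kinesins in *Zfp57*-/- cells.

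The summed TPM of the 13 transport kinesins was 930 and 794 in wild-type cells and 388 and 453 in *Zfp57*-/- cells. The summed TPM of the 13 mitotic kinesins was 499 and 541 in wild-type cells and 649 and 657 in *Zfp57*-/- cells. The groups did not overlap in either sum. As a share of all kinesin TPM, the transport genes made up 56.1% and 51.9% in wild-type cells and 33.2% and 36.0% in *Zfp57*-/- cells. The mitotic genes made up 30.1% and 35.4%, and then 55.5% and 52.1%. Transport TPM was thus 1.86 and 1.47 times mitotic TPM in the wild-type libraries, and 0.598 and 0.690 times in the mutant libraries. No test was made on these sums.

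**Figure D3:**
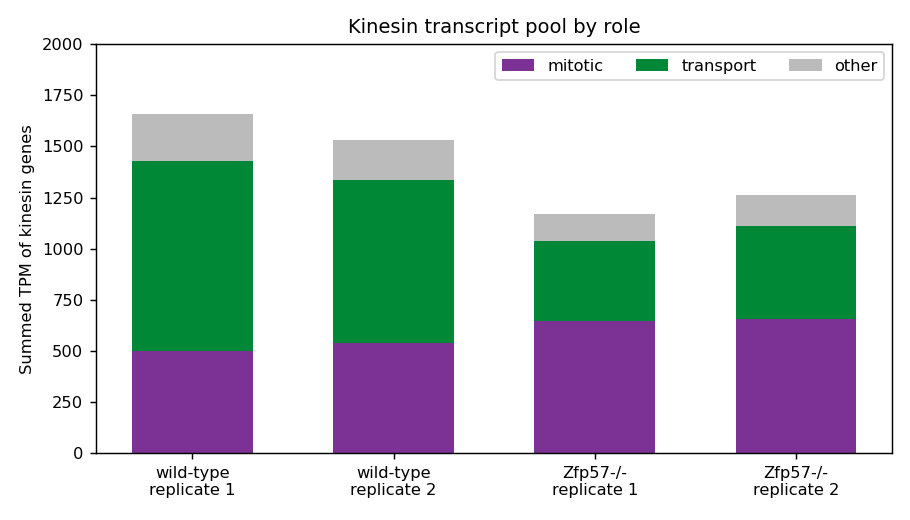
Summed TPM of the kinesin genes in each library, split into mitotic (purple), transport (green) and other (grey) kinesins. The green part shrinks from 930 and 794 TPM in wild-type cells to 388 and 453 TPM in *Zfp57*-/- cells, and the purple part is higher in both mutant libraries.

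Genotypes were then compared gene by gene. Of the 40 members, 38 passed the filter of more than 8 counts over the 4 libraries, and 19 were differentially expressed at an adjusted p below 0.05 (edgeR's quasi-likelihood test with Benjamini-Hochberg adjustment over all 19995 genes tested, as for every adjusted p on expression below). Among all genes tested, 27.6% were called. Of the 19 kinesins, 6 were higher and 13 lower in *Zfp57*-/- cells, against 13% higher and 14.6% lower among all genes. The 6 higher genes were all in the mitotic list, 7 of the lower ones in the transport list and 6 among the other kinesins. The remaining members were *Kif2b*, a relative of *Kif2a* and *Kif2c* with 0 counts in every library, and *Kif28*, with 3 counts in *Zfp57*-/- replicate 1 and 0 elsewhere.

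**Figure D4:**
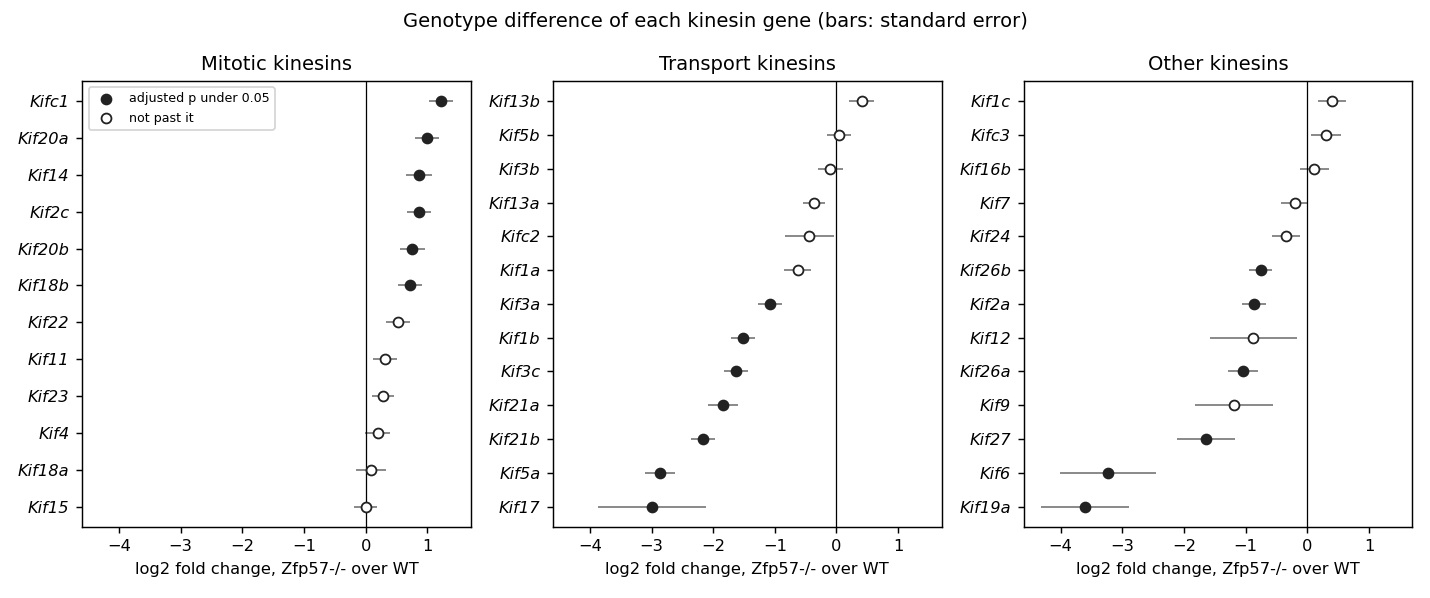
Log2 fold change of *Zfp57*-/- over wild-type cells for the 38 tested kinesins, with its standard error as a bar, by role. Filled points passed an adjusted p of 0.05 and open points did not. All 6 filled points of the mitotic list lie to the right of 0, and all 13 of the other lists to its left.

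The kinesins listed as mitotic were higher or not distinguishable in *Zfp57*-/- cells. The median log2 fold change of the 12 tested was 0.63, against -0.01 over all genes. Of these, 6 rose, against 13% of all genes tested. *Kif2a*, which also acts at spindle poles, is in the list of other kinesins and so not in the mitotic median or sums. It was lower in *Zfp57*-/- cells (log2 -0.87, adjusted p = 0.010). *Kifc1*, the minus-end-directed motor that bundles spindle microtubules and clusters extra centrosomes, had 219 and 308 counts in wild-type cells and 630 and 633 in *Zfp57*-/- cells. Its level was 28.3 ± 1.62 CPM against 66.2 ± 2.07 CPM (SD, n = 2 per genotype), and it rose 2.34-fold (log2 1.23, SE 0.19, adjusted p = 0.0014). *Kifc5b*, a close relative of *Kifc1*, had 121 and 171 against 223 and 254 counts (log2 0.67, adjusted p = 0.053). Since only unique alignments were counted, the division of reads between the pair is uncertain.

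*Kif20a*, a motor of the central spindle in cytokinesis, had 709 and 1174 counts in wild-type cells and 1884 and 1914 in *Zfp57*-/- cells. It rose 1.99-fold, from 99.9 ± 17.2 CPM to 199 ± 4.66 CPM (adjusted p = 0.0054). *Kif2c* (MCAK), which removes tubulin from microtubule ends at centromeres, had 385 and 591 counts against 912 and 891. It rose 1.81-fold (log2 0.86, SE 0.19, adjusted p = 0.0092). In each of these genes the mutant libraries were both above the wild-type libraries and close to each other.

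*Kif14*, which acts with citron kinase in cytokinesis, had 308 and 313 counts in wild-type cells and 571 and 611 in *Zfp57*-/- cells. It rose 1.82-fold (log2 0.87, SE 0.21, adjusted p = 0.012). *Kif20b*, a further cytokinesis motor and relative of *Kif20a*, had 886 and 897 counts against 1566 and 1584. It rose 1.69-fold (adjusted p = 0.020). *Kif18b*, which controls the length of astral microtubules, had 321 and 515 counts against 668 and 735, and rose 1.65-fold (adjusted p = 0.023). These genes, too, did not overlap between genotypes.

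The other mitotic kinesins did not pass the test. *Kif22*, the chromokinesin Kid, had 337 and 536 counts against 627 and 654, and a log2 fold change of 0.53 (SE 0.20, adjusted p = 0.072). *Kif11* (Eg5), which slides spindle poles apart, had a log2 fold change of 0.31 (SE 0.20), and *Kif23*, the motor of centralspindlin, 0.28 (SE 0.18). *Kif4*, a chromokinesin on the X chromosome, had 0.19 (SE 0.20). *Kif18a* and *Kif15*, at 0.08 (SE 0.24) and 0.00 (SE 0.19), overlapped between genotypes. The CHR core lay within 30 bases of the start in *Kif22*, *Kif11*, *Kif23*, *Kif4* and *Kif15* of these genes, and in *Kifc1*, *Kif20b* and *Kif18b* of those that rose.

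The mitotic calls depended on scaling and on the mutant libraries. When libraries were scaled to *Actb*, the log2 fold change of the median gene was -0.68, none of the mitotic kinesins was called, and the 6 named above had adjusted p from 0.48 to 0.99. The split of kinesin calls was then 0 higher and 13 lower. The mitotic median was -0.05 on that scale, 0.63 above the median gene, as compared with 0.64 above it with TMM factors. Without *Zfp57*-/- replicate 1 only *Kifc1* remained called, and without *Zfp57*-/- replicate 2 only *Kifc1* and *Kif20a*. A correction for gene length added *Kif22* and *Kif23* (adjusted p = 0.029 and 0.041), and the split was then 10 higher and 12 lower.

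The spindle and mitosis genes listed as partners of the mitotic kinesins moved in the same direction in part. Of 22 tested, 7 rose, none fell and 15 did not pass the test, with a median log2 fold change of 0.43. Among all genes tested, 27.6% were called, 13% higher and 14.6% lower. *Aurka*, the centrosomal Aurora kinase, had 337 and 595 counts in wild-type cells and 911 and 955 in *Zfp57*-/- cells (log2 0.99, adjusted p = 0.0071). *Hmmr*, a spindle assembly factor, had 656 and 736 against 1287 and 1319 (log2 0.85, adjusted p = 0.0088), and *Birc5* (survivin), of the chromosomal passenger complex, 257 and 455 against 678 and 661 (log2 0.90, adjusted p = 0.012). *Ccnb1*, *Ect2*, *Cdk1* and *Anln* made up the rest, with log2 fold changes from 0.66 to 0.79.

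Other listed genes of proliferating cells did not pass the test. *Mki67* had 5894 and 7167 counts in wild-type cells and 4554 and 5131 in *Zfp57*-/- cells (log2 -0.48, SE 0.19, adjusted p = 0.080). *Top2a* had 4865 and 7284 against 6332 and 6251 (log2 0.02, SE 0.19). *Aurkb* was at 0.04 (SE 0.21), and *Racgap1*, the partner of *Kif23* in centralspindlin, at -0.29 (SE 0.19). The 7 calls were all lost under *Actb* scaling, no spindle gene was called without *Zfp57*-/- replicate 1, and 1 was called without *Zfp57*-/- replicate 2. Without wild-type replicate 1, 9 spindle genes were called higher and 3 lower, and without wild-type replicate 2, 14 higher and 1 lower.

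Transport kinesins fell or were not distinguishable. The median log2 fold change of the 13 tested was -1.08, against -0.01 over all genes. Of the 13, 7 fell and none rose, against 14.6% lower and 13% higher among all genes tested. *Kif5a*, the neuronal heavy chain of conventional kinesin, had 541 and 791 counts in wild-type cells and 108 and 79 in *Zfp57*-/- cells. It was 7.25-fold lower, at 71.3 ± 6.02 CPM against 9.83 ± 2.49 CPM (log2 -2.86, SE 0.24, adjusted p = 3.1e-05). *Kif5b*, which encodes the ubiquitous form of the same motor, had 3841 and 6014 against 4600 and 5722 counts and a log2 fold change of 0.04 (SE 0.20, adjusted p = 0.91). Its level overlapped between genotypes.

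The kinesin-4 genes *Kif21a* and *Kif21b*, which restrain microtubule growth and are enriched in neurons, both fell. *Kif21b* had 1648 and 2005 counts in wild-type cells and 431 and 411 in *Zfp57*-/- cells, and was 4.48-fold lower (log2 -2.16, SE 0.19, adjusted p = 4.3e-05). *Kif21a* had 3264 and 2744 counts against 826 and 953, and was 3.58-fold lower (log2 -1.84, SE 0.24, adjusted p = 4.4e-04). The wild-type replicates of *Kif21a* were further apart, at 404 and 262 CPM, than its mutant replicates, at 88.7 and 97.4 CPM.

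The subunits of heterotrimeric kinesin-2 did not move together. *Kif3a* pairs with *Kif3b* or with *Kif3c*, the latter enriched in neurons, and the complex also carries cargo in cilia. *Kif3c* had 771 and 1005 counts in wild-type cells and 271 and 319 in *Zfp57*-/- cells, and was 3.10-fold lower (adjusted p = 2.3e-04). *Kif3a* had 642 and 714 counts against 307 and 362, and was 2.11-fold lower (adjusted p = 0.0033). *Kif3b* had 420 and 690 counts against 476 and 577, which overlapped between genotypes (log2 -0.10, SE 0.21). *Kifap3*, the accessory subunit of the complex, had 825 and 1226 against 619 and 688 counts (log2 -0.68, adjusted p = 0.024). The homodimeric kinesin-2 gene *Kif17*, which carries receptors in dendrites, had 17 and 15 counts against 1 and 3. From 32 and 4 counts, it was 8.24 times higher in wild-type cells with an exact 95% counting interval of 2.92 to 32.1. Its edgeR adjusted p was 0.030, and its DESeq2 adjusted p 0.064.

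Among the kinesin-3 motors, which carry synaptic vesicle precursors, mitochondria and endosomes, *Kif1b* fell. It had 4678 and 5076 counts in wild-type cells and 1740 and 1791 in *Zfp57*-/- cells, and was 2.88-fold lower (log2 -1.52, SE 0.19, adjusted p = 3.9e-04). *Kif1a*, the main carrier of synaptic vesicle precursors, had 3200 and 2987 counts against 1907 and 2297. Its log2 fold change was -0.63 (SE 0.22, adjusted p = 0.054), it did not overlap between genotypes, and it was called by DESeq2 (adjusted p = 0.030). *Kif13a* and *Kif13b* had log2 fold changes of -0.37 (SE 0.18) and 0.41 (SE 0.20) and did not pass the test. Among the alternatives run, *Kif13b* was called higher only with the correction for gene length (log2 0.95, adjusted p = 0.0033) and without wild-type replicate 1. The kinesin-3 genes *Kif1c* and *Kif16b* are in the list of other kinesins and so not in the transport median or sums. Their log2 fold changes were 0.40 (SE 0.22) and 0.11 (SE 0.24), and neither passed the test. With the correction for gene length, *Kif1c* was called higher (log2 0.67, adjusted p = 0.049). *Kifc2*, a neuronal motor towards the minus end, was low in both genotypes, with 56 and 71 against 60 and 36 counts.

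The 7 transport calls were kept under *Actb* scaling, where the median log2 fold change was -1.80, or 1.12 below the median gene. Without *Zfp57*-/- replicate 1, *Kif3a* and *Kif17* were not called (adjusted p = 0.082 and 0.25), and without *Zfp57*-/- replicate 2, *Kif17* was not (log2 -3.87, adjusted p = 0.092). With the correction for gene length, the log2 fold change of *Kif1b* was -0.85, and it stayed called.

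Adaptors and other partners of the transport kinesins moved both ways. Of 23 tested, 10 fell, 2 rose and 11 did not pass the test, with a median log2 fold change of -0.44. These 23 include genes of dynein and dynactin (*Dync1h1*, *Dync1i1*, *Dync1i2*, *Dctn1* and *Dctn2*). Of these, only *Dctn1* passed the test, and it fell (log2 -0.59, adjusted p = 0.047). The shares over all genes tested were 14.6% lower and 13% higher. *Fez1*, a cargo adaptor of conventional kinesin in axons, had 419 and 672 counts in wild-type cells and 55 and 60 in *Zfp57*-/- cells (log2 -3.27, SE 0.24, adjusted p = 1.4e-05). *Mapk8ip2*, a scaffold that links kinesin light chains to JNK signalling, had 319 and 545 against 69 and 78 (log2 -2.57, SE 0.25). *Hap1*, the huntingtin-associated adaptor, had 367 and 681 against 146 and 146 (log2 -1.85, SE 0.24). Both related scaffold genes, *Mapk8ip1* and *Mapk8ip3*, also fell, as did the adaptor *Apba1*.

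The kinesin light chains, which bind cargo for conventional kinesin, differed among themselves. *Klc1*, enriched in neurons, had 1210 and 2146 counts in wild-type cells and 787 and 742 in *Zfp57*-/- cells (log2 -1.15, SE 0.21, adjusted p = 0.0035). *Klc3*, known from the testis, rose from 31 and 31 counts to 86 and 89 (log2 1.43, SE 0.37, adjusted p = 0.018). *Klc2* and *Klc4* had log2 fold changes of -0.36 (SE 0.22) and -0.05 (SE 0.21). Of the mitochondrial adaptors, *Trak2* had 547 and 738 counts against 917 and 1080 (log2 0.60, adjusted p = 0.039), and *Trak1* 720 and 983 against 633 and 665 (log2 -0.43, adjusted p = 0.11). On the *Actb* scale *Klc3* was at 0.71 and *Trak2* at -0.08, and neither was called. Without *Zfp57*-/- replicate 1 and replicate 2, 6 and 5 partners were called lower and none higher, and the adjusted p of *Klc3* was 0.18 and 0.17.

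Among the 14 other kinesins, 6 of the 13 tested fell and none rose, against 14.6% lower and 13% higher among all genes tested. Their median log2 fold change was -0.87, against -0.01 over all genes. Motors of cilia stood at the head of this group. *Kif19a*, which shortens microtubules at the tips of motile cilia, had 155 and 68 counts in wild-type cells and 3 and 17 in *Zfp57*-/- cells, 12.1-fold lower (log2 -3.60, SE 0.71, adjusted p = 0.0048). *Kif6*, a motor of ependymal cilia, had 60 and 28 counts against 2 and 8 (log2 -3.23, SE 0.78, adjusted p = 0.013). *Kif27*, which serves motile ciliogenesis, had 67 and 54 against 16 and 25 counts (log2 -1.64, SE 0.47, adjusted p = 0.029). *Kif9*, another ciliary motor, had 39 and 21 against 17 and 11 counts and did not pass the test (log2 -1.19, SE 0.63).

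These ciliary genes were higher in wild-type replicate 1 than in wild-type replicate 2. The summed level of 4 motile cilia markers (*Foxj1*, *Dnah5*, *Rsph1* and *Ccdc39*) followed the same order, at 36.3 and 15.6 CPM, and was 10.4 and 10.5 CPM in *Zfp57*-/- cells. Of these markers, *Dnah5*, a dynein heavy chain of the axoneme, fell (log2 -2.90, adjusted p = 0.0056), and the other 3 did not pass the test. The part of ciliated cells in the result was not tested. The log2 fold change of *Kif19a* was -2.65 without wild-type replicate 1, -2.86 without *Zfp57*-/- replicate 1 and -5.25 without *Zfp57*-/- replicate 2. That of *Kif6* was -2.36, -2.59 and -4.46 without the same libraries.

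*Kif2a*, a microtubule depolymerase that prunes axon branches and also acts at spindle poles, had 864 and 892 counts in wild-type cells and 502 and 502 in *Zfp57*-/- cells, 1.83-fold lower (adjusted p = 0.010). It thus moved opposite to its relative *Kif2c*. *Kif26a* had 396 and 346 against 196 and 183 counts (log2 -1.04, SE 0.25, adjusted p = 0.012), and *Kif26b* 677 and 883 against 426 and 525 counts (log2 -0.76, SE 0.19, adjusted p = 0.016). Both belong to the atypical kinesin-11 family, and *Kif26b* lost its call with the correction for gene length (log2 -0.18, adjusted p = 0.55). *Kif7*, the hedgehog regulator of primary cilia, had 222 and 318 against 253 and 225 counts (log2 -0.21, SE 0.22). *Kif24*, *Kif16b*, *Kif12*, *Kif1c* and *Kifc3* did not pass the test either, with log2 fold changes from -0.87 to 0.40. Without *Zfp57*-/- replicate 1 only *Kif19a*, and without *Zfp57*-/- replicate 2 only *Kif19a* and *Kif6*, were called among the other kinesins.

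The allele-specific table addresses whether the parental alleles of the kinesins differed alike between genotypes. The allelic ratio is the maternal (JF1) share of the reads that cover a strain difference, from 0 for paternal to 1 for maternal reads only. Of the 34 members tested, 7 differed between genotypes in their allelic ratio (edgeR's genotype-by-allele contrast with Benjamini-Hochberg adjustment over 10977 genes, as for every adjusted p on alleles below), against 14.5% of all genes tested. The ratio was higher in *Zfp57*-/- cells for 4 of them and lower for 3. The 6 members not tested were *Kif2b* and *Kif17*, with 0 allelic reads, *Kif28*, *Kif9* and *Kif12*, with at most 13 per genotype, and the X-linked *Kif4*. In these male cells *Kif4* had no paternal read among 729 in the wild-type and 845 in the mutant line (0 of each). Taken as 3 divided by the reads, this allows a paternal share of up to about 0.00412 and 0.00355.

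*Kif5b* was read mainly from the maternal allele in wild-type cells and about equally from both in *Zfp57*-/- cells, while its total did not pass the test. Its allelic ratio was 0.916 and 0.927 in wild-type cells, from 6159 reads, and 0.517 and 0.505 in *Zfp57*-/- cells, from 7225 reads (genotype-by-allele log2 -3.50, SE 0.09, adjusted p = 4.8e-51). Maternal reads went from 2205 and 3477 to 1663 and 2023, and paternal reads from 203 and 274 to 1556 and 1983. On the CPM scale, its maternal allele went from 302 in wild-type to 193 in mutant cells, and its paternal allele from 25.6 to 185. Its neighbours were taken as the 15 nearest genes covered by 10 or more allelic reads per library, which here span 5835 kb. They had a median ratio of 0.570 in wild-type cells and 0.464 in mutant cells. None of the 15 reached 0.9 in wild-type cells.

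*Kifc1* (GRCm38 chr17:33875659-33890661) was read from the maternal allele in wild-type cells and from both in *Zfp57*-/- cells. Its ratio was 1.00 and 0.988 in wild-type cells, with 1 paternal read of 155, and 0.409 and 0.456 in *Zfp57*-/- cells, with 234 paternal reads of 413. The Wilson 95% intervals of the pooled ratios were 0.964 to 0.999 and 0.386 to 0.482, which cover counting error only. On the CPM scale, maternal reads went from 8.36 to 9.36 and paternal reads from 0.048 to 12.3. The higher total of *Kifc1* thus lay in paternal reads (genotype-by-allele log2 -7.34, SE 0.61, adjusted p = 2.3e-18). Its 15 nearest genes, which span 258 kb, had a median that fell from 0.818 to 0.481, 5 of them were at 0.9 or more in wild-type cells, and 13 were lower in *Zfp57*-/- cells. The targeted gene lies on the same chromosome, 3110.5 kb from *Kifc1*.

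*Kifc3* (GRCm38 chr8:95099828-95202812), a motor towards the minus end at epithelial junctions, had a ratio of 0.844 and 0.906 in wild-type cells, from 85 reads, and of 0.50 and 0.508 in *Zfp57*-/- cells, from 111 reads (adjusted p = 1.1e-04). Its 15 nearest genes, which span 7770 kb, went from a median of 1.00 to 0.421, and 13 of them were at 0.9 or more in wild-type cells. The region thus moved with the gene, and its median was further from 0.5 than that of *Kifc3* itself. Without wild-type replicate 2, *Kifc3* was not called.

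**Figure D5:**
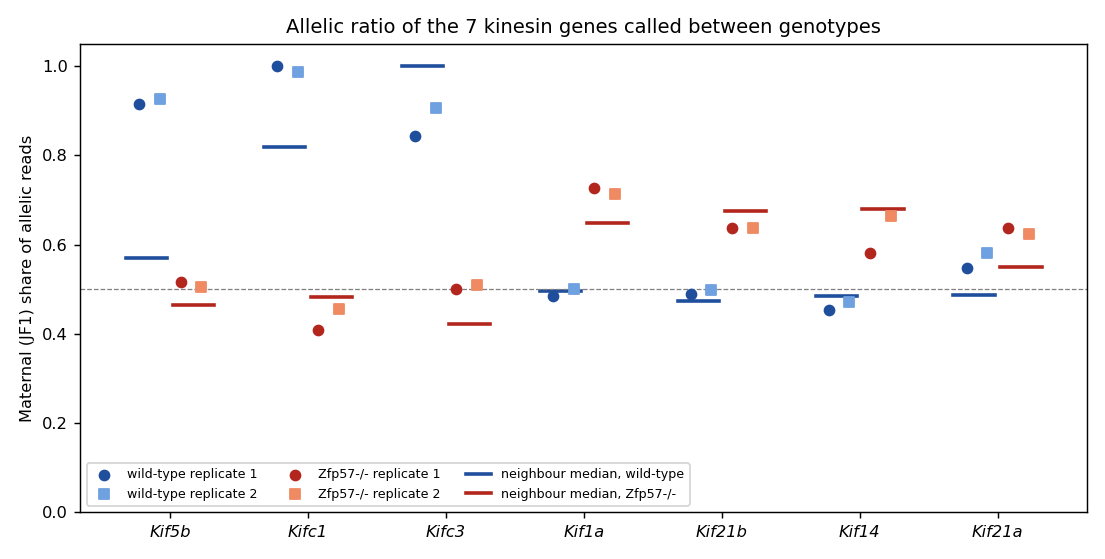
Maternal share of allelic reads for the 7 kinesins that differed between genotypes, with a point per library (wild-type blue, *Zfp57*-/- red). Short lines give the median of the 15 nearest genes in each genotype, and the dashed line marks 0.5. *Kif5b*, *Kifc1* and *Kifc3* fall to between 0.409 and 0.517 in *Zfp57*-/- cells, and the other 4 lie above their wild-type points.

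Of the 4 genes whose ratio rose, 3 lie on chromosome 1, where the median of 615 genes was 0.490 in the wild-type and 0.620 in the mutant line. *Kif1a* (GRCm38 chr1:93015464-93101951) had wild-type ratios of 0.485 and 0.50 and mutant ratios of 0.728 and 0.714 (log2 1.41, SE 0.10, adjusted p = 2.9e-21). Its maternal allele went from 114 to 105 CPM and its paternal allele from 118 to 40.8 CPM. Its 15 nearest genes were at 0.495 and 0.648. *Kif21b* (GRCm38 chr1:136131389-136177998) went from 0.490 and 0.498 to 0.637 and 0.637 (adjusted p = 1.0e-04), while its neighbours went from 0.474 to 0.675. Its maternal allele went from 53.2 to 15.7 CPM and its paternal allele from 54.5 to 8.98 CPM, so that both were lower. *Kif14* (GRCm38 chr1:136466343-136531511) went from 0.454 and 0.470 to 0.582 and 0.663 (adjusted p = 8.6e-05), and its neighbours from 0.485 to 0.679. The maternal allele of *Kif14* went from 13.5 to 33.2 CPM and its paternal allele from 15.8 to 20.2 CPM, so that both were higher.

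*Kif21a* (GRCm38 chr15:90933276-91049948) had a small shift, from 0.548 and 0.582 to 0.637 and 0.624 (log2 0.40, SE 0.12, adjusted p = 0.0099), and its 15 nearest genes went from 0.486 to 0.551, on a chromosome whose median was 0.503 and 0.482. It was not called without wild-type replicate 1 or *Zfp57*-/- replicate 1, and neither *Kif21a* nor *Kif14* was called by DESeq2. Of the 27 tested members that were not called, *Kif27* was the only one with at least 20 reads in *Zfp57*-/- cells whose mean ratio there reached 0.67, with 0.50 and 0.864 in single libraries from 38 reads. *Kif5a*, *Kif3c*, *Kif1b* and *Kif3a*, which fell in total, had ratios between 0.384 and 0.528 in both genotypes and were not called in the genotype-by-allele contrast. Among the mitotic genes that rose, *Kif20a*, *Kif20b*, *Kif18b* and *Kif2c* had ratios between 0.436 and 0.532.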

How the data were processed

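RNA was measured by paired-end, strand-specific RNA-seq in 2 wild-type and 2 *Zfp57*-/- libraries. In the bulk table, the authors deposited raw counts of fragments per GENCODE vM20 gene on GRCm38, made per the labels and the study's methods with Trimmomatic 0.36, STAR 2.5.4a and featureCounts of Subread 1.6.0, from unique alignments on the matching strand. The allele table, as deposited by the authors, holds raw counts of fragments split by strain differences with SNPsplit. Neither table was normalized.

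Genes with more than 8 counts over the 4 libraries were compared with edgeR 4.0.16 (R 4.3.3, TMM factors, robust quasi-likelihood test) at a Benjamini-Hochberg adjusted p of 0.05 over all 19995 genes tested. The standard error is the log2 fold change divided by the root of the F statistic. TPM used the gene lengths of the table. The allelic fit took the 8 allele columns of the autosomal genes that reached 10 normalized counts over both alleles in each wild-type library, and its model held the library and, separately for the genotypes, the allele. Library depth limits precision, and intervals cover counting error only. P-values weigh the difference between genotypes against the spread between replicate libraries, which was estimated in part from all genes. They do not cover variation between independently derived lines. Promoters came from RefSeq (GRCm38.p6) and symbols from a GENCODE vM21 table, which named 54721 of 55602 identifiers. Figures used Python 3.11.15 and matplotlib 3.10.9.

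The members, role lists, partner lists and motifs were chosen with earlier results of these data known. In each role list the 6 called members with the smallest adjusted p are given with all counts, as are the first 3 in each direction among the partners, and other genes by their values. One symbol that the rule leaves out is not reported here. Alternatives were DESeq2 1.42.0, other scalings and filters, a replicate block, a gene-length correction, stricter thresholds and leaving out each library. Simulated data with 200 changed genes were put through the edgeR, block, DESeq2 and length-corrected bulk fits and the edgeR allelic fit. False calls numbered 7, 27, 15, 7 and 8 in that order. The allelic simulation drew binomial shares without added spread between libraries, so it cannot check the allelic p-values for such spread. The other allelic fits were not simulated.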

Additional observations from a re-analysis of the deposited data

Results flagged for a closer look

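The genotype effect differed between the parental alleles of 7 kinesin genes, by the genotype-by-allele contrast of edgeR with Benjamini-Hochberg adjustment. This was out of 34 kinesin genes tested, and 14.5% of all genes tested were called. On the log2 scale, maternal over paternal reads changed from wild-type to *Zfp57*-/- cells by -7.34 in *Kifc1*, -3.50 in *Kif5b* and -2.84 in *Kifc3*, and by 1.41 in *Kif1a*, 0.95 in *Kif14*, 0.84 in *Kif21b* and 0.40 in *Kif21a*. The difference was in the same direction in both mutant libraries for each of the 7. Since the 7 were selected on these same libraries, this is no separate support. *Kif21a* and *Kif14* were not called by DESeq2. The median ratio of the 15 nearest genes moved in the same direction for each of the 7, for *Kif5b* by far less than in the gene itself. With 2 libraries per group, single libraries could not be tested as outliers.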

How the results depend on the processing

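Of 19 kinesin calls, 6 were higher and 13 lower. With *Actb* scaling, 0 mitotic kinesins, 0 kinesins in all and 0 spindle partners were called higher, the mitotic median turned to -0.046, the transport median was -1.80, and *Trak2* turned to -0.083. With the gene-length correction, 10 kinesins were called higher and the medians were 0.68 and -0.85. At an adjusted p of 0.01, 10 kinesins were called, 3 higher (3 mitotic) and 7 lower (1 of the other kinesins), with 2 spindle partners higher and 6 transport partners lower. With a log2 fold change of at least 1, 12 kinesins were called, 1 higher (1 mitotic), with 0 spindle partners and with 1 transport partner higher and 6 lower. Leaving out each library in turn gave 7 to 27 kinesin calls, 1 to 10 higher and 6 to 17 lower, 1 to 9 mitotic kinesins higher, 1 to 8 other kinesins lower, 0 to 14 spindle partners higher, 5 to 15 transport partners lower and mitotic medians from 0.46 to 0.64. Over all genes, calls went from 2831 without *Zfp57*-/- replicate 1 to 9947 without wild-type replicate 2, against 5522. The cause was not tested.

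The replicate numbers are not stated to pair the libraries. Over 11880 genes, the correlation between libraries of the same number, after subtracting group means, was 0.144. In the fit with a block for these numbers, 21 kinesins were called, *Kif22* and *Kif1a* (adjusted p = 0.036 and 0.021) in addition. The 6 called members with the smallest adjusted p of each role list and the first partners in each direction made up 26 genes. All 26 kept direction and call with DESeq2, DESeq2 size factors, upper-quartile scaling, no filter, a stricter filter and the block. With *Actb* scaling 15 kept both, 10 lost the call and 1 turned direction. With the gene-length correction 25 kept both and 1 lost the call. When either mutant replicate was left out, all 26 kept their direction, but many lost their call, more than with *Actb* scaling. *Kif17*, called but not among the 26, lost its call with DESeq2 (adjusted p = 0.064). DESeq2 called 5 kinesins between alleles and the other alternatives 6 or 7. Depth limits *Kif17*, *Kif6*, *Kif12*, *Kif9* and *Kif28* most.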
